A study of Mus musculus with 10 samples.

Results

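The comparison described here is that of regulatory T cells (Treg) lacking the transcription factor genes Tcf7 and Lef1 with wild-type Treg, in 4 mouse RNA sequencing libraries of a series of 10. Genes entered the comparison when they had at least 5 FPKM (a read level corrected for transcript length and for library size) in at least 2 of the 4 libraries and were above 0 in all 4, which held for 8367 of the 32767 genes listed. Both groups were C57BL/6 mice whose Foxp3 locus carried cre on 1 of its alleles, labelled Foxp3cre/wt, and CD4 T cells from spleen and lymph nodes were sorted by the YFP that marks the Foxp3cre allele. The 2 wild-type libraries (WT) carried Tcf7wt/wt and Lef1wt/wt, and the 2 knockout libraries (dKO) carried Tcf7fl/fl and Lef1fl/fl. The age of the mice, the exons removed and whether replicates came from separate animals are not stated, so the p-values reflect how far these libraries differ from each other, and that spread may be technical.

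Tcf7 encodes TCF1 and Lef1 encodes LEF1, a pair of related HMG-box proteins that bind the same short DNA motif and can act as activators with beta-catenin or as repressors with Groucho corepressors. In T cells they are known for early thymic commitment, for the choice of the CD4 lineage, for naive and memory persistence and for the formation of follicular helper cells. Treg depend on Foxp3 and restrain immune responses. Because Cre came from a heterozygous Foxp3 allele, Treg with and without the deletion can coexist in such mice, Foxp3 being on the X chromosome.

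The defining T cell markers were present in all 4 libraries, with Foxp3 at FPKM values of 119.9 and 106 in WT against 126 and 114 in dKO and the 8 Treg and CD4 T cell markers summing to between 3934 and 4177 FPKM. Between 15158 and 15917 genes per library were above 0. The absolute depth is unknown because no counts were used, and it limits the weakest genes most. Of 8 B cell markers, 7 stayed at or under 1 FPKM in every library, and the 5 conventional dendritic cell and 4 neutrophil markers did so as well. Other lists held expressed members in all 4 libraries. The 8 plasmacytoid dendritic cell markers summed to between 82.9 and 101.6 FPKM, mostly through Bst2 (61.3 to 75.8 FPKM), while their defining marker Siglech stayed at or under 0.535 FPKM. The 6 stromal and endothelial markers summed to between 62.6 and 76.9 FPKM, mostly through Pecam1 (57.9 to 71.2 FPKM). Of the 2 CD8 T cell markers, Cd8b1 lay between 14.1 and 16.6 FPKM and Cd8a at or under 0.488 FPKM. None of these genes was called. In dKO replicate 2 alone, 9 monocyte and macrophage markers summed to 71.1 FPKM, against 5.08 FPKM in dKO replicate 1 and 8.44 and 3.31 FPKM in WT. None of those 9 markers entered the test, and their part in the results below was not tested. In sorted bulk RNA, fewer cells of a type and less RNA per cell cannot be told apart.

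On log2(FPKM + 1), replicates differed by a median of 0.0983 per gene in WT and 0.107 in dKO, and the 4 pairs across groups by 0.121 to 0.154. Of the 8367 genes, limma called 69 higher in dKO (0.825%) and 90 lower (1.08%), together 1.9%, at a Benjamini-Hochberg adjusted p under 0.05. An unadjusted p under 0.05 was found for 1557 genes (18.6%). The median log2 fold change of all tested genes was 0.008. For 4287 genes (51.2%) the 2 groups did not overlap, 2175 with dKO above WT (26%) and 2112 with dKO below (25.2%), so a lack of overlap alone sets few genes apart. The called genes comprised 150 protein-coding genes (64 higher and 86 lower), and the smallest change called was 0.43 on the log2 scale. A change of at least 1 was seen in 20 of the higher and 36 of the lower genes.

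The number of calls depended on which libraries were in the fit. Without WT replicate 1 there were 8 called genes (5 higher and 3 lower), and the same numbers without WT replicate 2, while 211 were called without dKO replicate 1 (85 and 126) and 563 without dKO replicate 2 (252 and 311). The library with the monocyte and macrophage markers is dKO replicate 2, and their part in these calls was not tested. Only Nedd4, Cyp4f18, Plac8, Myo6, Rpl34 and the pseudogene Gm6404 were called in each of these 4 fits. Igfbp4 was called in 3 of them, 130 genes in 2 and 22 genes in 1, so most calls named below were lost without either WT library. Gm6404 was chosen for naming after its values were seen. Among the 159 genes, dKO replicate 1 lay further from WT than dKO replicate 2 in 51 of the 69 higher and in 61 of the 90 lower.

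**Figure D1:**
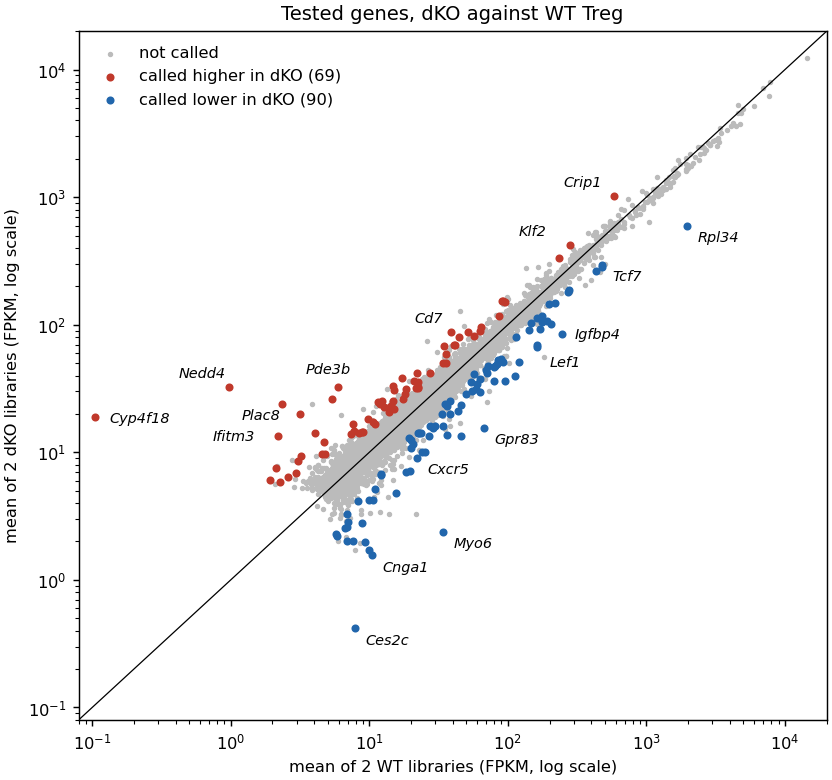
Mean FPKM of the 2 dKO libraries against the mean of the 2 WT libraries for the 8367 tested genes, both axes on a log scale, with the 69 genes called higher in dKO in red and the 90 called lower in blue. Most genes lie along the diagonal of equal level, and the called genes leave it on both sides, from the weakest to the most abundant.

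Both targeted genes were lower in dKO without being absent. Lef1 had FPKM values of 160.4 and 166 in WT against 71.6 and 62.8 in dKO (log2 fold change -1.27, SE 0.09, adjusted p = 0.0069). Tcf7 had FPKM values of 456 and 501 in WT against 316 and 272 in dKO (log2 fold change -0.70, SE 0.10, adjusted p = 0.037) and was 1.63-fold lower in the mean. The groups were separate for each gene. A gene-level FPKM also counts exons that stay after deletion, so they are an incomplete check of the labels. The groups overlapped for Foxp3 (log2 fold change 0.08, SE 0.09, adjusted p = 0.69). On GRCm38, Lef1 lies on the plus strand of chromosome 3 (131110471 to 131224356) and Tcf7 on the minus strand of chromosome 11 (52252371 to 52283014).

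Among the genes that rose, a pair went from near silence to clear expression. Nedd4, a HECT-type ubiquitin ligase, had FPKM values of 1.12 and 0.832 in WT against 33.8 and 31.0 in dKO (log2 fold change 4.08, SE 0.13, adjusted p = 6.7e-04). The leukotriene-oxidising cytochrome gene Cyp4f18 had FPKM values of 0.122 and 0.0875 in WT against 22.0 and 15.7 in dKO (log2 fold change 4.15, SE 0.19, adjusted p = 0.0015). Both genes lay near or under 1 FPKM in the 2 WT libraries. Plac8, which encodes a small cysteine-rich protein, had FPKM values of 3.09 and 3.21 in WT against 18.5 and 21.3 in dKO (log2 fold change 2.33, SE 0.11, adjusted p = 0.0017). Ifitm3, which blocks virus entry, had FPKM values of 1.95 and 2.44 in WT against 11.98 and 14.8 in dKO (log2 fold change 2.17, SE 0.16, adjusted p = 0.0071). For Plac8 and Ifitm3 both dKO libraries lay above both WT libraries.

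Several further large rises concerned enzymes and adaptors. Pde3b, which degrades cAMP and is known to be repressed by Foxp3 in Treg, had FPKM values of 6.75 and 5.08 in WT against 39.3 and 25.7 in dKO (log2 fold change 2.26, SE 0.22, adjusted p = 0.016), with dKO replicate 1 the higher of the pair. Pygm, the muscle isoform of glycogen phosphorylase, had 2.48 and 3.99 against 9.62 and 9.04 FPKM (log2 fold change 1.31, SE 0.19, adjusted p = 0.04). Hsd17b4, a peroxisomal enzyme of fatty acid oxidation, was tightly reproduced at 15.2 and 14.7 against 33.1 and 32.8 FPKM. Card9, an adaptor between C-type lectin receptors and NF-kappaB, had 2.32 and 2.21 against 5.94 and 5.72 FPKM. The kinase gene Map4k5 (log2 fold change 1.25), the ciliary gene Iqcb1 (1.17), the junction receptor gene Ildr1 (1.43) and the sushi-domain gene Susd3 (1.11) also rose, each with an adjusted p between 0.016 and 0.040.

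Chil5 and Fcrl1 are shown with their promoters because, among the called genes that the naming rule picked and that matched a promoter, they hold the core letters bound by TCF1 and LEF1, CTTTGAT or CTTTGAA on either strand, within 250 bases before the start. Chil5, a chitinase-like gene, had FPKM values of 5.38 and 5.45 in WT against 33.6 and 18.5 in dKO (log2 fold change 2.02, SE 0.26, adjusted p = 0.032). Fcrl1, an Fc receptor-like gene best known from B cells, had FPKM values of 7.82 and 7.55 in WT against 1.503 and 2.55 in dKO (log2 fold change -1.54, SE 0.20, adjusted p = 0.032). The pair went in opposite directions. The sequences below are RefSeq promoters of GRCm38.p6, 5′ to 3′ on the gene's strand, for Chil5 chr3:106032896-106033145 on the minus strand and for Fcrl1 chr3:87376137-87376386 on the plus strand, with the motif letters in capitals (those of Fcrl1 read on the opposite strand).
Chil5: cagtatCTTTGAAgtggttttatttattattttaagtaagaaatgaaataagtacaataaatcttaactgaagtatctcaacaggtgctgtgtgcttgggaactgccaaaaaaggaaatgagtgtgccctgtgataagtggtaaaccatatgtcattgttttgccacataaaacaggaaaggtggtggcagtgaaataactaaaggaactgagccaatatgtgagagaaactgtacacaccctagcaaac
Fcrl1: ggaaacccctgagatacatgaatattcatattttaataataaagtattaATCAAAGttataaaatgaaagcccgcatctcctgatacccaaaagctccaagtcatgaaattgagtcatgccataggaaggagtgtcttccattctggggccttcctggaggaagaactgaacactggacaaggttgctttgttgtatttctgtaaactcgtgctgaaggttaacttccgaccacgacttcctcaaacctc
The motif letters end 237 bases before the start in Chil5 and 194 bases before it in Fcrl1. Over all 32851 promoter windows of 300 bases in the RefSeq table, 8.65% hold 1 of the motifs on either strand. Of the called genes, 118 of 159 were matched to a promoter by symbol, and 10 of these held a match (5 higher and 5 lower in dKO), Inpp5b, described below, among them. The share was 9.62% of the matched genes called higher, 7.58% of those called lower and 5.82% of all matched tested genes (372 of 6392). Since fewer than 80% of the genes had a promoter in the table, a comparison of these shares is void. A match is a description of the letters and not of binding.

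The largest fall was that of Myo6, the myosin that moves towards the minus end of actin filaments, with FPKM values of 29.6 and 38.5 in WT against 2.11 and 2.64 in dKO (log2 fold change -3.37, SE 0.16, adjusted p = 0.0015). Ces2c, a carboxylesterase gene, had FPKM values of 9.91 and 5.83 in WT against 0.0191 and 0.815 in dKO (log2 fold change -2.67, SE 0.35, adjusted p = 0.033). Both were clearly expressed in WT and weak in both dKO libraries. Rpl34, a protein of the large ribosomal subunit, was the most abundant gene called, at FPKM values of 1892 and 2039 in WT against 605 and 589.7 in dKO (log2 fold change -1.72, SE 0.07, adjusted p = 0.0014). Its near-identical pseudogene copies make the assignment of its reads uncertain.

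Other large falls were in receptors, channels and secreted factors. The receptor gene Gpr83, known as a Treg marker, had FPKM values of 63.3 and 70.3 in WT against 10.8 and 20.4 in dKO (log2 fold change -2.09, SE 0.27, adjusted p = 0.032), the larger fall being in dKO replicate 1. P2rx7, an ATP-gated channel, had 91.0 and 101 against 32.7 and 39.8 FPKM, a log2 difference of -1.39 (adjusted p = 0.011). Gabrr2, a GABA receptor subunit, had 9.61 and 10.2 against 1.34 and 2.08 FPKM, and Cnga1, a cyclic nucleotide-gated channel known from rod cells, had 8.81 and 12.01 against 1.5 and 1.61 FPKM. These 4 genes were at least 2-fold lower in each dKO library than in each WT library. Igfbp4, which binds insulin-like growth factors, had 218 and 271 against 90.5 and 79.0 FPKM, and Bmp7, a ligand of the TGF-beta family, had 7.89 and 5.88 against 1.69 and 2.31 FPKM. The actin gene Actg2 (log2 fold change -1.80), the actin cross-linker gene Actn1 (-1.48), the pyrin-domain gene Pydc3 (-1.71), the calcium uniporter subunit gene Ccdc109b (-1.53) and the cytokine gene Tnfsf14, or LIGHT (-1.38), completed the 15 largest falls. Pydc3 has near-identical neighbours, and its values are uncertain.

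**Figure D2:**
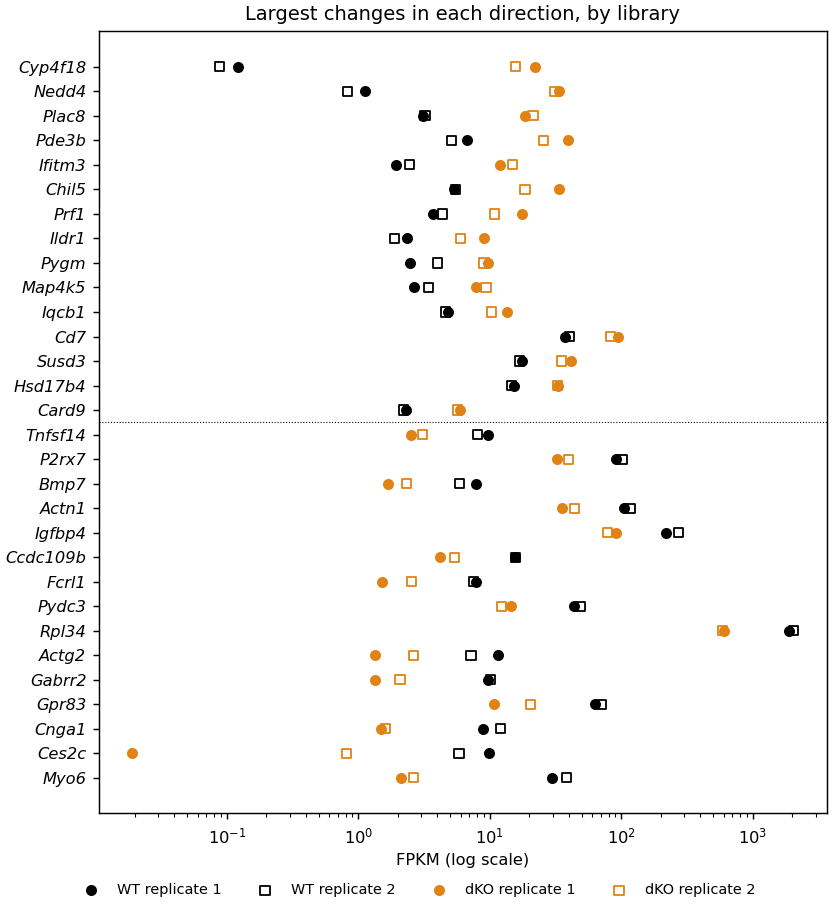
FPKM on a log scale in each of the 4 libraries for the 15 largest rises (above the dotted line) and the 15 largest falls (below it). Black symbols are WT and orange symbols dKO, circles replicate 1 and squares replicate 2. In every line the 2 dKO libraries lie on one side of the 2 WT libraries, which the rule for naming these genes required.

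Measured by the difference in FPKM instead, the rises were led by abundant genes. Crip1, a small LIM-domain protein of activated T cells, had FPKM values of 579 and 586 in WT against 1082 and 946 in dKO (log2 fold change 0.80, SE 0.09, adjusted p = 0.021). Klf2, the transcription factor that maintains quiescence and lymphoid homing, had FPKM values of 281 and 277 in WT against 445 and 400.0 in dKO (log2 fold change 0.60, SE 0.08, adjusted p = 0.033). Lfng, a glycosyltransferase that modifies Notch, had 229 and 240.3 against 352 and 317 FPKM. The other 7 were Id3, Cd7, Sptssa (a subunit of serine palmitoyltransferase), Pim1 (a survival kinase), Taf15 (an RNA-binding protein), Rcn1 (a calcium-binding protein of the endoplasmic reticulum) and Cuta, with log2 fold changes between 0.58 and 1.17.

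The falls by FPKM were led by Rpl34, Gas5, Tcf7, Thy1 and Igfbp4. Gas5, a host transcript of small nucleolar RNAs, had FPKM values of 481 and 484 in WT against 278 and 292 in dKO (log2 fold change -0.76, SE 0.07, adjusted p = 0.013), and Thy1, the T cell glycoprotein CD90, had FPKM values of 412 and 461 in WT against 271 and 259 in dKO (log2 fold change -0.72, SE 0.08, adjusted p = 0.025). Each had dKO libraries that lay close together and well below WT. Rgs1, which dampens chemokine receptor signals, had 195 and 216 against 87.4 and 117 FPKM, and H2-Q6, a non-classical MHC class I gene with near-identical copies, had 173 and 151 against 71.3 and 66.6 FPKM. Zfp36l2, which destabilises mRNAs, and Dgka, which removes diacylglycerol, were lower by 0.55 and 0.58 on the log2 scale.

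Of 27 genes of follicular Treg and follicular helper T cells, cells that enter B cell follicles, 23 were tested, and 6 of these were called, all lower (26.1%, against 1.08% lower among all tested genes). The lists were chosen with earlier results of these data known, so their shares of called genes are descriptions and not tests. The share called in each list below reads against the 1.9% called of all tested genes. The follicular list had a median log2 fold change of -0.38, against 0.008 over all tested genes. This median was -0.29 without WT replicate 1, -0.35 without dKO replicate 1, -0.50 without WT replicate 2 and -0.62 without dKO replicate 2. Cxcr5, a chemokine receptor for follicle entry, had FPKM values of 24.1 and 20.1 in WT against 7.21 and 10.8 in dKO (log2 fold change -1.22, SE 0.19, adjusted p = 0.045). Slamf6, a receptor in contacts with B cells, had 182 and 174 against 107 and 126 FPKM, and Tnfsf8, the ligand of CD30, had 29.5 and 30.5 against 14.3 and 17.7 FPKM. For all 3 genes dKO replicate 1 was the lowest library. The receptor for interleukin 6 was lower in both of its chains: Il6ra had FPKM values of 80.0 and 86.1 in WT against 53.5 and 44.1 in dKO (log2 fold change -0.76, SE 0.11, adjusted p = 0.038), and the shared signalling chain gene Il6st had FPKM values of 169 and 174 in WT against 78.9 and 105 in dKO (log2 fold change -0.91, SE 0.14, adjusted p = 0.043). P2rx7, described above, was the remaining gene called.

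The other follicular genes did not pass, and of those given here Slamf1, Sh2d1a, Pdcd1 and Cxcr4 were chosen after their values were seen. Slamf1 had 31.6 and 31.2 against 17.6 and 21.7 FPKM (adjusted p = 0.057), and Sh2d1a, which encodes the adaptor SAP, had 96.0 and 90.8 against 49.2 and 64.7 FPKM (adjusted p = 0.066). Bcl6, the transcription factor of these cells, had 11.7 and 10.2 against 7.97 and 8.37 FPKM (adjusted p = 0.16). For these 3 genes dKO lay below WT without overlap, as for 25.2% of all tested genes. The same held for the receptor genes Pdcd1 (49.2 and 27.4 against 10.4 and 21.8 FPKM) and Cxcr4 (184 and 179 against 17.9 and 93.7 FPKM). Pdcd1 and Cxcr4 had larger log2 fold changes, -1.23 and -2.11, but their dKO libraries differed widely (adjusted p = 0.18 and 0.19). Icos had overlapping groups, with 67.8 and 56.4 against 39.2 and 58.3 FPKM.

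Treg identity genes had 22 of 25 list members tested, of which Gpr83 was called lower and none higher (4.55%). The list's median was -0.46, 18 members were negative, and without dKO replicate 1 the median was -0.27. Ikzf2, which encodes Helios, had 77.3 and 60.4 against 27.9 and 46.9 FPKM (adjusted p = 0.14), and Izumo1r, or folate receptor 4, which was chosen after its values were seen, had 483 and 440.2 against 216 and 300.5 FPKM (adjusted p = 0.063). Il2ra, the interleukin 2 receptor alpha chain, lay the other way at 176 and 187 against 209 and 248 FPKM (adjusted p = 0.18), and the inhibitory receptor gene Ctla4 overlapped between groups at 125 and 114 against 80.4 and 119 FPKM.

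Transcription factors and regulators of T cells had 47 of 50 members tested, with 2 called higher and 3 lower (10.6%), the deleted pair included. Besides Klf2, Id3, which blocks DNA binding by E proteins, rose to 163 and 147 FPKM from 92.2 and 90.6 FPKM (log2 fold change 0.75, SE 0.08, adjusted p = 0.021). Zfp36l2 fell from 288 and 262 FPKM to 187 and 186 FPKM (log2 fold change -0.55, SE 0.08, adjusted p = 0.036). At -0.01, the median of the list was close to that of all tested genes. Satb1, a genome organiser active in Treg precursors, had 125 and 149 against 219 and 190.5 FPKM (adjusted p = 0.074). Bach2, which restrains effector programmes, overlapped between groups at 29.9 and 35.9 against 26.9 and 30.1 FPKM, and Prdm1, which encodes BLIMP1, had 5.44 and 3.65 against 5.57 and 5.70 FPKM (adjusted p = 0.47).

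Receptors that place T cells in tissues had 26 of 30 members tested, with 1 called higher and 3 lower (15.4%), Cxcr5 among the latter. Their median was -0.15, and it was -0.04 without WT replicate 1 and -0.08 without dKO replicate 1. The lymph node homing receptor gene Ccr7 fell to 148 and 151 FPKM from 208 and 227 FPKM in WT (log2 fold change -0.54, SE 0.08, adjusted p = 0.036). Gpr15, a receptor for homing to the colon, fell from 7.67 and 6.41 FPKM to 3.19 and 2.48 FPKM (log2 fold change -1.07, SE 0.16, adjusted p = 0.043). Ccr2, a receptor for inflammatory chemokines, rose from 10.8 and 10.3 FPKM to 18.3 and 16.4 FPKM (log2 fold change 0.66, SE 0.10, adjusted p = 0.038). Replicates were close for Ccr7 and Ccr2 and differed more, in proportion, for Gpr15. S1pr1, a receptor for exit from lymph nodes, overlapped between groups at 233 and 271 against 310.4 and 259.6 FPKM (adjusted p = 0.49).

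In T cell receptor signalling, all 34 list members were tested and 2 were called, both lower (5.88%), with a median of -0.09. Dgka, which limits diacylglycerol signals, had FPKM values of 259 and 281 in WT against 179 and 182 in dKO (log2 fold change -0.58, SE 0.07, adjusted p = 0.032). Ubash3a, a phosphatase-like suppressor of the same pathway, had FPKM values of 87.0 and 83.8 in WT against 56.1 and 48.9 in dKO (log2 fold change -0.69, SE 0.09, adjusted p = 0.033). Both genes are negative regulators by textbook role. Other members with such a role, chosen after their values were seen, were not called and lay in both directions. Csk (log2 fold change 0.11), Cblb (0.09) and Ptpn6 (0.06) were positive, and Ptpn22 (-0.435), Cd5 (-0.31) and Dgkz (-0.05) negative. The coreceptor gene Cd4 had 384 and 411 against 188 and 264 FPKM with no overlap and missed the threshold (adjusted p = 0.072). Cd3e had 306 and 307 against 382 and 363 FPKM (adjusted p = 0.11) and the kinase gene Lck 463 and 468 against 519 and 456 FPKM (adjusted p = 0.75).

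Costimulatory and inhibitory receptors and their ligands had 27 of 29 members tested, with 2 called higher and 4 lower (22.2%, against 1.9% of all tested genes), and a median of -0.23 that was -0.08 without dKO replicate 1 and -0.37 without dKO replicate 2. Cd7, an immunoglobulin-family glycoprotein of T cells, rose from 37.1 and 40.2 FPKM to 93.6 and 83.3 FPKM (log2 fold change 1.17, SE 0.09, adjusted p = 0.0092). Tnfrsf25, or DR3, a costimulatory receptor of Treg, rose from 61.5 and 64.4 FPKM to 93.0 and 87.1 FPKM (log2 fold change 0.51, SE 0.08, adjusted p = 0.042). LIGHT and CD160, which share the receptor HVEM, were both lower: Tnfsf14 had 9.64 and 8.10 against 2.51 and 3.08 FPKM and Cd160 6.83 and 7.10 against 1.99 and 3.18 FPKM, the latter close to the threshold with an adjusted p of 0.0497. Tnfsf8 and Slamf6 were the other falls. Cd28 had 114 and 113 against 92.1 and 109 FPKM and did not pass (adjusted p = 0.39).

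Cytokine receptors and their signalling genes had 30 of 33 members tested, with the 2 chains of the interleukin 6 receptor as the ones called (6.67%) and a median of -0.11. Il7r, the receptor for the survival cytokine interleukin 7, had 104 and 77.8 against 74.3 and 60.4 FPKM, without overlap and without passing (adjusted p = 0.25). Survival and death genes had 28 of 32 members tested and a median of -0.03. The kinase gene Pim1 was the sole member called (3.57%), rising from 99.8 and 91.2 FPKM to 158 and 142 FPKM (log2 fold change 0.65, SE 0.09, adjusted p = 0.036). Bcl2 had 55.3 and 66.3 against 69.0 and 72.0 FPKM (adjusted p = 0.33), its relative Mcl1 286 and 315 against 265 and 308 FPKM (adjusted p = 0.77) and the pro-apoptotic Bcl2l11, or BIM, 29.6 and 32.0 against 39.0 and 44.8 FPKM (adjusted p = 0.097).

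**Figure D3:**
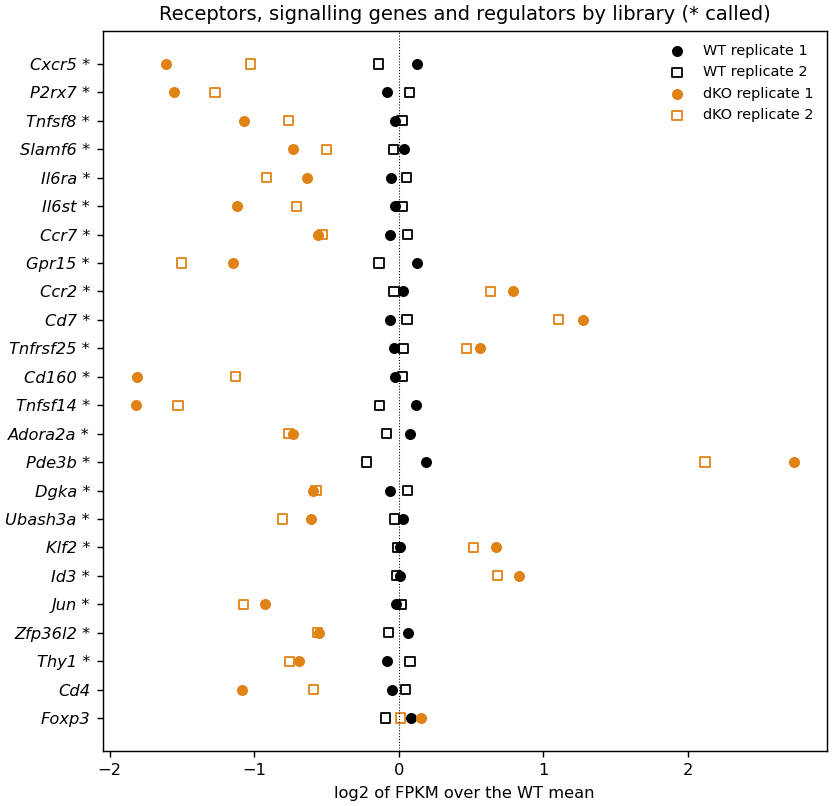
Log2 of each library's FPKM over the WT mean for 24 receptors, signalling genes and regulators, with black symbols for WT and orange for dKO, circles for replicate 1 and squares for replicate 2, and an asterisk for called genes. The 22 genes with an asterisk show separated groups, Cd4 is separated but not called, and Foxp3 overlaps around 0.

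Genes of suppression moved in different directions: 16 of 20 members were tested, with Pde3b and Prf1 called higher and Adora2a lower (18.8%). Their median was -0.13, and it was -0.0010 without dKO replicate 1, -0.06 without WT replicate 1, -0.07 without dKO replicate 2 and -0.19 without WT replicate 2. Prf1, which encodes perforin, had FPKM values of 3.68 and 4.39 in WT against 17.5 and 10.9 in dKO (log2 fold change 1.56, SE 0.22, adjusted p = 0.036). Adora2a, the adenosine receptor coupled to cAMP production, had FPKM values of 25.0 and 22.3 in WT against 14.2 and 14.0 in dKO (log2 fold change -0.71, SE 0.09, adjusted p = 0.033). Pde3b, which breaks down cAMP, is described above. Tgfb1 overlapped between groups at 122 and 105 against 111 and 114 FPKM, and Entpd1, or CD39, had 21.2 and 20.6 against 19.1 and 16.0 FPKM (adjusted p = 0.29).

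Among cytokine and cytotoxic effector genes 13 of 29 were tested, and 2 were called higher (Prf1 and Ctsw) and 2 lower (Tnfsf14 and Tnfsf8), which is 30.8% against 1.9% of all tested genes, with a median of 0.24 that was 0.02 on leaving out WT replicate 2 and was 0.03 without dKO replicate 2. Ctsw, a cathepsin of cytotoxic granules, had FPKM values of 55.3 and 59.1 in WT against 82.8 and 80.3 in dKO (log2 fold change 0.50, SE 0.08, adjusted p = 0.042). The chemokine gene Ccl5 had 35.1 and 16.9 against 65.4 and 84.1 FPKM (adjusted p = 0.079), and Gzmb, or granzyme B, chosen after its values were seen, 4.63 and 3.67 against 7.73 and 11 FPKM (adjusted p = 0.069). Neither overlapped between groups, and neither passed. Ltb, or lymphotoxin beta, was level at 784 and 728 against 739 and 715 FPKM. The 4 NK cell markers summed to between 2.53 and 4.11 FPKM in all libraries, and the CD8 T cell marker Cd8b1 lay between 14.1 and 16.6 FPKM.

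Components and targets of the Wnt pathway had 25 of 37 members tested and a median of -0.02. Jun, a subunit of AP-1, was the gene called (4%), falling from 8.24 and 8.48 FPKM to 4.40 and 3.97 FPKM (log2 fold change -0.85, SE 0.12, adjusted p = 0.036). Axin2, a feedback inhibitor and common reporter of the pathway, had 17.3 and 20.3 against 15.01 and 14.46 FPKM (adjusted p = 0.18). Ctnnb1, the gene of beta-catenin, had 112 and 114 against 99.7 and 111 FPKM (adjusted p = 0.57), and the Groucho corepressor gene Tle4 15.6 and 15.8 against 15.9 and 15.8 FPKM (adjusted p = 0.97). Of the immediate early genes 22 of 29 were tested (median -0.01), and Jun was again the gene called (4.55%), while Fos was weak at 4.33 and 4.89 against 5.70 and 5.08 FPKM.

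Naive and quiescence genes had 27 of 29 members tested, with 3 called higher and 5 lower (29.6%, against 1.9% of all tested genes). Their median was 0.17, and it was 0.07 without WT replicate 1, 0.08 without dKO replicate 1 and 0.28 without WT replicate 2. The higher ones were Id3, Klf2 and Als2cl, the last with 41.4 and 42.0 against 77.0 and 61.9 FPKM (log2 fold change 0.72, SE 0.11, adjusted p = 0.048). Those called lower were the deleted pair, Igfbp4, Actn1 and Ccr7. The share above counts the deleted pair, although these genes were the targets of the deletion. The list thus split in both directions.

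Cytoskeleton and migration genes had 33 of 36 members tested, with Crip1 called higher and Myo6 and Actn1 lower (9.09%; median -0.0064). Actn1 had FPKM values of 105 and 118 in WT against 35.3 and 44.1 in dKO (log2 fold change -1.48, SE 0.12, adjusted p = 0.011). Vim had 462 and 391 against 509 and 565 FPKM (adjusted p = 0.18) and S100a4 overlapped at 189 and 134 against 139.8 and 183 FPKM. Metabolic genes of activated T cells had 32 of 34 members tested and a median of -0.02. Mthfd2, a mitochondrial enzyme of the folate cycle, was the gene called (3.12%), with FPKM values of 35.9 and 36.9 in WT against 12.6 and 14.7 in dKO (log2 fold change -1.36, SE 0.10, adjusted p = 0.0076). Ldha had 377 and 389 against 295 and 343 FPKM (adjusted p = 0.2) and the glucose transporter gene Slc2a1 21.9 and 26.7 against 27.4 and 24.0 FPKM (adjusted p = 0.77).

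Interferon-stimulated genes had 36 of 45 members tested, of which Ifitm3 was called (2.78%, near the 1.9% of all tested genes), with a median of 0.19; 29 members were positive and 24 had dKO above WT without overlap, against 26% of all tested genes. Irf7, a transcription factor of the interferon response, had 37.4 and 38.0 against 60.6 and 51.4 FPKM and did not pass (adjusted p = 0.059). Cell cycle genes had 24 of 43 members tested, with none called by limma. An unadjusted limma p under 0.05 was found for 4 of the 24, against 18.6% of all tested genes. Of the 24 cell cycle genes, 7 had dKO above WT without overlap, against 26% of all tested genes. A positive change was seen in 23 of the 24 cell cycle genes, with a median of 0.28. Their WT libraries differed: Top2a, a topoisomerase of dividing cells, had 15.2 and 7.42 against 12.3 and 19.6 FPKM. The cell cycle median was 0.12 without WT replicate 2, without dKO replicate 2 it was 0.13, and without WT replicate 1 or dKO replicate 1 it was 0.46 and 0.48. Of the cytoplasmic ribosomal proteins 79 of 82 were tested, with Rpl34 called (1.27%), 75 negative and a median of -0.16; 67 members had dKO below WT without overlap, against 25.2% of all tested genes. The medians near 0, those of the transcription factor, survival, Wnt, immediate early, metabolic and cytoskeletal lists, ranged from -0.13 to 0.08 when 1 library was left out, so their sign carries no weight.

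**Figure D4:**
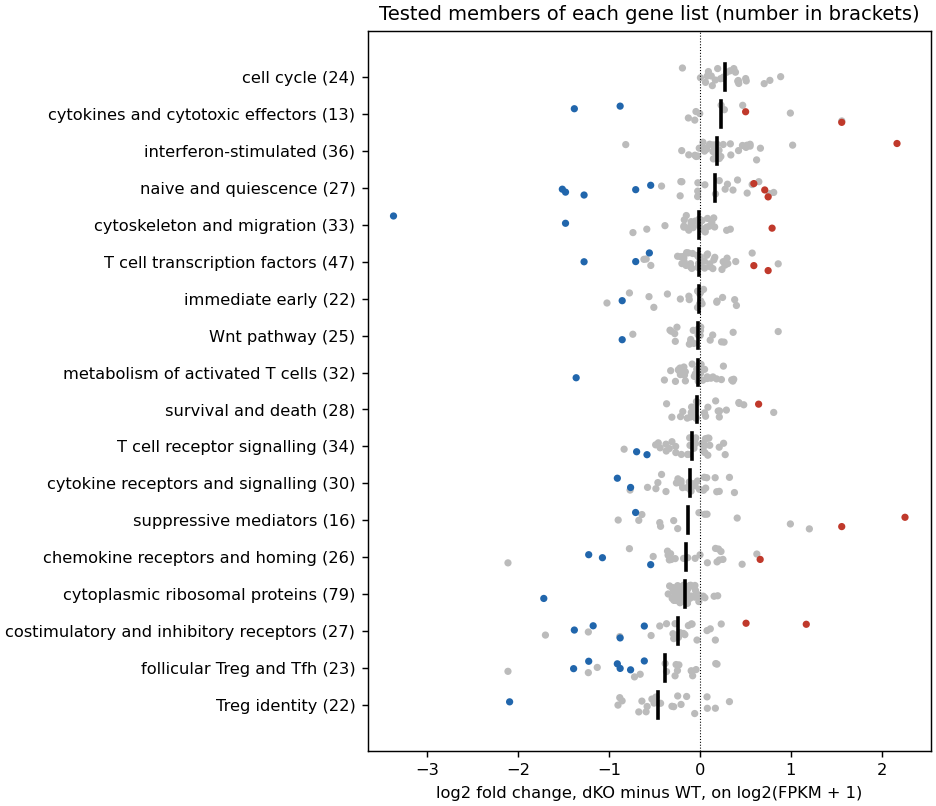
Log2 fold change (dKO minus WT, on log2(FPKM + 1)) of each tested member of 18 gene lists, ordered by the list median (black bar), with genes called higher in red, called lower in blue and others in grey. Medians run from 0.28 for cell cycle genes to -0.46 for Treg identity genes, and several lists hold called genes on both sides of 0.

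Called genes outside these lists, chosen for naming after their values were seen, included enzymes of adenosine and methionine metabolism. Adk, or adenosine kinase, had FPKM values of 33.4 and 34.7 in WT against 14.47 and 17.6 in dKO (log2 fold change -1.05, SE 0.11, adjusted p = 0.02). Mri1, an enzyme of the methionine salvage pathway, had 33.0 and 34.3 against 17.7 and 22.0 FPKM, and Ahcyl2, a relative of S-adenosylhomocysteine hydrolase, had 117 and 112 against 78.1 and 81.0 FPKM. All 3 were lower in dKO. The phosphoinositide phosphatase genes Inpp4b (144 and 152 against 100 and 105 FPKM) and Inpp5b (88.9 and 89.3 against 53.0 and 54.4 FPKM) were lower as well. Ptgir, the prostacyclin receptor, was higher with FPKM values of 4.94 and 4.68 in WT against 9.96 and 9.46 in dKO (log2 fold change 0.88, SE 0.11, adjusted p = 0.032), and Faah, which hydrolyses endocannabinoids, was higher with 35.6 and 36.0 against 60.4 and 58.7 FPKM.

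Further genes of this kind were receptors and regulators. Hopx, a homeodomain protein of Treg and memory T cells, had FPKM values of 123 and 117 in WT against 44.0 and 58.1 in dKO (log2 fold change -1.23, SE 0.13, adjusted p = 0.021). Notch2 had 23.1 and 21.5 against 14.0 and 14.3 FPKM and Zfpm1, a cofactor of GATA proteins, 67.5 and 59.3 against 37.1 and 38.2 FPKM, both lower. Tlr7, a receptor for single-stranded RNA, had FPKM values of 15.8 and 14.6 in WT against 28.8 and 33.0 in dKO (log2 fold change 0.98, SE 0.10, adjusted p = 0.019), Cd86, a costimulatory ligand, 12.5 and 10.8 against 24.1 and 25.7 FPKM, and Cd79b, a chain of the B cell receptor complex, 14.1 and 14.6 against 22.5 and 23.3 FPKM, all 3 higher. The other B cell markers stayed at or under 0.829 FPKM in every library. Whether other cells had a part in these values was not tested.

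Called genes were spread over the range of levels. With the tested genes split by mean FPKM into 4 groups of like size, 1.82% were called in the lowest (3.86 to 11.8 FPKM) and 2.58% in the highest (above 46.6 FPKM), where 37 of 54 called genes were lower. By chromosome, the share called was highest on chromosome 3, which holds Lef1, with 2 higher and 11 lower of 388 tested (3.35%). The 11 include the targeted Lef1 itself. Chromosome 10, which holds neither target, came next with 2 higher and 10 lower of 409 (2.93%). Among the autosomes the share called was lowest on chromosome 15, with 1 of 325 (0.308%). On chromosome 3, Rpl34 (130726831 to 130730398) and Ccdc109b (129914960 to 129970206), both called lower, lie near the targeted Lef1 (131110471 to 131224356). A part of the targeted locus in their values was not tested. Nedd4 (72662346 to 72749852) and Myo6 (80165031 to 80311729) both lie on the plus strand of chromosome 9 on GRCm38. Chromosome 9 had 7 genes called higher and 6 lower of 483 tested (2.69%). On chromosome 16, Cd86 (36603869 to 36666081), Ildr1 (36693978 to 36726804) and Iqcb1 (36828385 to 36872721), all called higher, lie near each other. Whether their rises are independent was not tested.

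The rule left out 82 genes that reached 5 FPKM in 2 libraries but were listed at 0 in another. Of these, 2 are protein-coding, Eef1a1 and mt-Co1, both used by every cell and both listed at 0 in the 2 WT libraries. Eef1a1 had 7068 and 7188 FPKM in dKO and mt-Co1 6204 and 6367 FPKM, so a listed 0 is not read as absence. In all, 8 of the 82 were at 0 in both WT libraries and above 0 in both dKO libraries, and 5 the other way round. The microRNA model Gm26377, among the 8, had 118710 and 121994 FPKM in dKO. These zeros thus followed the groups, and whether WT and dKO were processed alike was not tested. At the edge of the rule, Ehd4 entered with a second-highest value of 5.01 FPKM, while Ccrn4l stayed out with 4.99 FPKM.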

How the data were processed

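Gene expression was measured by RNA sequencing of sorted mouse Treg, with 2 WT and 2 dKO libraries. The authors deposited FPKM values per gene, and STAR and Cuffdiff with the GRCm38 build are named in the submitters' processing notes; their versions, the annotation and any scaling of libraries are not stated there. Per the labels' protocols, RNA came from an RNeasy Plus Mini kit and libraries from a stranded TruSeq mRNA kit. The 4 tables were joined by gene identifier, 32767 blank rows per table were dropped, and 27 names that had become dates were restored from GENCODE vM21 (GRCm38), which lists 32522 of the identifiers. The identifiers end before those of 1818 protein-coding genes of that annotation, which were not analysed here.

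The genes kept (5 FPKM or more in 2 or more libraries, none at 0) were compared on log2(FPKM + 1), a scale that understates changes of weak genes, by limma (version 3.58.1, R version 4.3.3) with a trended prior. The test was two-sided, with p-values adjusted over all genes tested by the Benjamini-Hochberg method and a threshold of 0.05 (2 residual and 3.85 prior degrees of freedom). The fit was tested on simulated data. The members and lists were chosen with earlier results of these data known. Named genes were Tcf7, Lef1 and Foxp3, the 15 largest log2 changes and 10 largest FPKM differences each way among called genes without overlap, key list members and up to 6 called members per list. Gene models and small RNAs were left out by that rule, and genes named outside it are marked in the text as chosen after their values were seen. The alternatives were other filters, pseudocounts, scalings, moderation, gene classes, a replicate block and leaving out each library. The subset libraries of the series were not used here.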

Additional observations from a re-analysis of the deposited data

How the results depend on the processing

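The counts of 69 higher and 90 lower genes depend on several choices. A minimum of 1 FPKM gave 45 and 72, no level filter 8 and 13, keeping genes listed at 0 in some library 28 and 31, a prior without trend 47 and 53, robust moderation 118 and 128, and protein-coding genes alone 106 and 125. Leaving out 1 library gave 5 to 252 higher and 3 to 311 lower genes, the low values coming without either WT library, where 7 and 6 of the 159 genes were called. A minimum of 10 FPKM, pseudocounts of 0.1 and 5, median scaling and quantile normalization kept both counts within 1.5 times, and 129 to 158 of the 159 genes were called under them. Same-numbered libraries had a correlation of deviations of -0.127 across 8367 genes. With 2 libraries per group, this value cannot show whether the numbers pair the libraries. A replicate block gave 10 higher and 27 lower genes, and the crossed pairing, added after seeing the data, 182 and 221. None of the 63 called genes named by the rule changed sign under any alternative in which it was tested. Their groups did not overlap, so leaving out a library, a block or another filter or pseudocount could not have changed the sign. The called genes named outside the rule were not followed in this way. The cause of these shifts was not tested, and the depth behind the FPKM values is unknown.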
